A study of Arabidopsis thaliana with 48 samples.

Results

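The miRNAs described here are those found as 22 nt reads in immunoprecipitates of AGO1, the main Argonaute protein of Arabidopsis thaliana, from the closed flower buds of plants with a mutated PRMT5 gene. There were 2 libraries of the mutant atprmt5-2, 2 of the mutant atprmt5-6 and 2 of Col0 wild type, all from untreated plants, which the design text describes as biological duplicates. The members are all miRNAs with a listed value in these 6 tables of 22 nt reads, out of 48 tables in the series: 36 of the 428 miRNAs that every table names. The sources used here do not give the kind of mutation in each allele, the number of plants per library or their age. PRMT5 itself could not be checked, because miRNAs only were measured.

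A miRNA is cut from a folded precursor by a Dicer-like enzyme, and its guide strand is loaded into AGO1, which prefers guides that begin with uridine and uses them to find matching mRNAs. Most plant miRNAs are 21 nt long. The less common 22 nt guides are known because AGO1 loaded with one can recruit the RNA-dependent RNA polymerase RDR6 to its target, which is then turned into double-stranded RNA and diced into secondary siRNAs in phase with the cut. PRMT5 is a methyltransferase that adds symmetric dimethyl groups to arginines of RNA-binding proteins and histones. The question set by the design text was how its mutation changes the small RNAs that accumulate, and those that AGO1 carries, in reproductive tissue.

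The mature sequences below are those the results turn on: the guides that differed most between mutants and wild type, the known triggers of secondary siRNAs, and the pollen-associated miR845b and the 24 nt miR163 as guides that did not pass the test. They were read from the RefSeq annotation of TAIR10.1, with 5′ to 3′ order and the seed, bases 2 to 8, in capitals. The miR393 and miR447 lines each stand for a pair of genes with 1 identical mature sequence, and miR167a-5p is the 21 nt relative of miR167d.
miR167d: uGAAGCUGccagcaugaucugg
miR167a-5p: uGAAGCUGccagcaugaucua
miR173-5p: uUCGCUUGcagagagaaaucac
miR393a-5p and miR393b-5p: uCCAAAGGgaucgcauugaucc
miR472-3p: uUUUUCCUacuccgcccauacc
miR850: uAAGAUCCggacuacaacaaag
miR447a-3p and miR447b: uUGGGGACgagauguuuuguug
miR777: uACGCAUUgaguuucguugcuu
miR853: uCCCCUCUuuagcuuggagaag
miR845b: uCGCUCUGauaccaaauugaug
miR163: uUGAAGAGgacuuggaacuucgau
None of the guides shown shares a seed with another, apart from the identical pairs and miR167d with miR167a-5p. MIR167d lies on chromosome 1 at 11137556-11137577 (plus strand), given here for the mature miRNA, as are the positions that follow. MIR173 lies on chromosome 3 at 8236161-8236182 (plus strand), MIR393a on chromosome 2 at 16652111-16652132 (plus strand) and MIR393b on chromosome 3 at 20691657-20691678 (plus strand). None of these 4 overlaps another annotated gene. Mature miR472-3p, on chromosome 1 at 4182143-4182164 (minus strand), overlaps an exon of the protein-coding gene AT1G12290, and miR777, on chromosome 1 at 26638083-26638104 (plus strand), an exon of the protein-coding gene AT1G70650. On chromosome 4, miR850 at 7845756-7845777 (plus strand) lies in an intron of the non-coding RNA gene AT4G13495, and on chromosome 3 miR853 at 8346416-8346437 (plus strand) lies in an intron of the protein-coding gene AT3G23325, each on the same strand as its host.

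The values are the authors' RPM, in which the reads of a miRNA are scaled to a fixed number of 22 nt reads of the same library, so they are not on the scale of the 21 nt tables. The 22 nt reads numbered 703609 and 1495145 in atprmt5-2, 1537392 and 1355295 in atprmt5-6, and 2047056 and 2259088 in wild type, in the order replicate 1 and replicate 3, and pairs of values below keep that order. Atprmt5-2 replicate 1 was thus the shallowest library, where 1 read was worth 1.42 RPM and 3 reads, the limit that a count of 0 allows, 4.26 RPM. In wild type 3 reads were worth 1.47 and 1.33 RPM. Such limits cover counting error only. The labelled AGO1 fraction had the marks of AGO1 loading: miRNAs made up 70.5% to 74.8% of 21 nt reads in the immunoprecipitates, against 23.0% to 32.9% in total small RNA of the same genotypes, and 32 of the 36 members begin with uridine, against 0 of the 15 miRNAs that were listed as 22 nt reads only in total small RNA. The comparison of first bases is limited, because those 15 include identical copies of miR8167 and of miR2933. None of the 15 had more than 9 reads in a library.

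Of the 36 members, 30 are annotated at 22 nt, 2 at 23 nt and 4 at 24 nt. No miRNA annotated at under 22 nt has a value in any 22 nt table, so longer variants of 21 nt miRNAs are not part of what the tables show. A mean of at least 10 RPM over the 6 libraries was reached by 19 members, which were tested, all beginning with uridine and holding 17 distinct sequences. The other 17 were low, with means from 0.0814 RPM (miR404) to 9.55 RPM (miR833a-5p), and 3 of them were listed in 1 library only. Over all 36, 27 were listed in all 6 libraries.

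Summed over all members, miRNA reads stood higher in both mutants. Their summed level was 3898 and 4371 RPM in atprmt5-2, 3203 and 2772 RPM in atprmt5-6, and 2062 and 2057 RPM in wild type. All 4 mutant libraries were above both wild-type libraries, and the mean of the mutants was 1.73 times that of wild type (exact two-sided permutation test over libraries, p = 0.1333, the smallest that 4 against 2 libraries can give). The pool by which these values are divided also differed relative to 21 nt reads. For every 100 reads of 21 nt there were 18.8 and 22.1 reads of 22 nt in atprmt5-2, 18.8 and 21.0 in atprmt5-6, and 30.6 and 29.7 in wild type, again with no overlap (exact permutation test, p = 0.1333). In total small RNA that ratio was 69.0 and 79.2 in atprmt5-2, 73.3 and 77.2 in atprmt5-6, and 94.3 and 83.9 in wild type. There too the mutants had fewer 22 nt reads relative to 21 nt reads (exact permutation test, p = 0.1333). Such ratios do not show whether the 22 nt or the 21 nt pool differed. Set against 21 nt reads instead, the same miRNA reads came to 731 and 965 RPM of 21 nt reads in atprmt5-2, 603 and 583 in atprmt5-6, and 630.1 and 612 in wild type. On that scale the atprmt5-6 libraries were below wild type, the atprmt5-2 libraries above, and the mutants as a whole did not pass the test (exact permutation test, p = 0.8). The part of the lower ratio of 22 to 21 nt reads in each RPM difference below was not tested. The libraries come from whole buds, in which fewer cells of a type and less RNA per cell cannot be told apart.

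**Figure D1:**
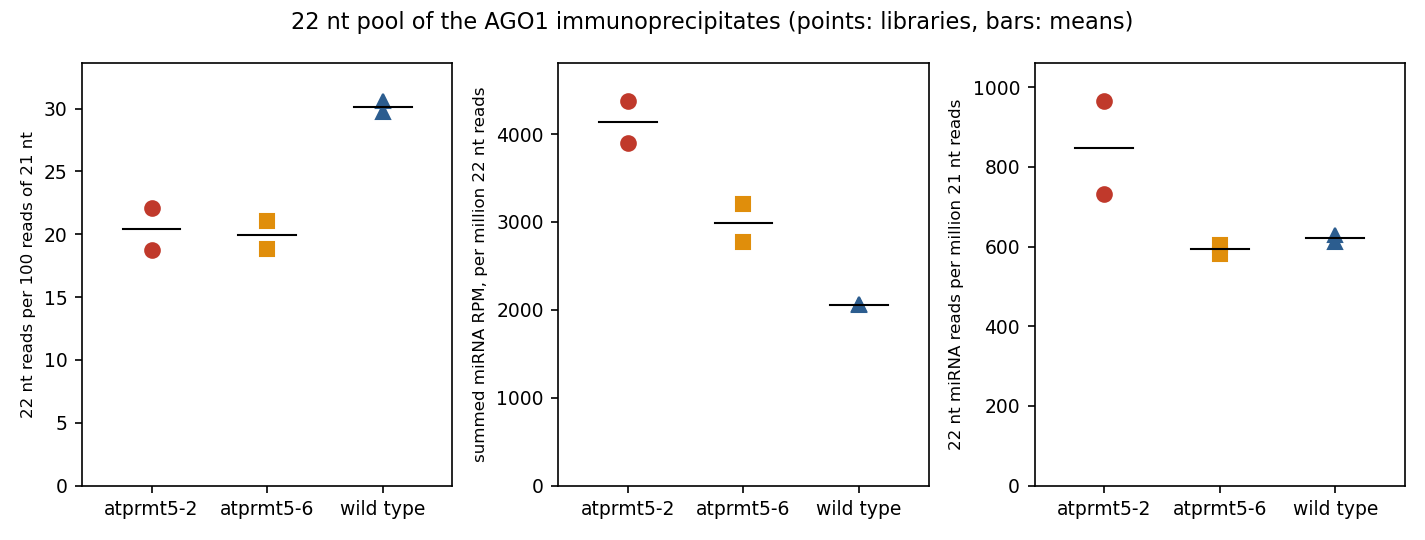
Each point is 1 AGO1-IP library and each bar a group mean: the left panel plots 22 nt reads per 100 reads of 21 nt, the middle panel the summed miRNA level in RPM of 22 nt reads and the right panel 22 nt miRNA reads as RPM of 21 nt reads. The mutants lie below wild type in the left panel and above it in the middle panel, and only the atprmt5-2 libraries lie above it in the right panel.

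In atprmt5-2, 9 of the 19 miRNAs tested were higher than in wild type and 0 were lower, which is 47.4% and 0% of those tested (limma, Benjamini-Hochberg adjusted p under 0.05). They were miR167d, miR850, miR447b, miR393b-5p, miR173-5p, miR472-3p, miR853, miR393a-5p and miR777, with log2 fold changes from 0.93 to 1.79. This count includes miR393a-5p and miR393b-5p, which are identical in sequence. With identical copies summed, 7 of 17 were higher in atprmt5-2 and 0 were lower, and miR853 was no longer called. The median log2 fold change over all 19 was 0.70, and 15 of the 19 were positive. In atprmt5-6, 0 of 19 (0%) passed the threshold and 5 had an unadjusted p under 0.05 in limma, all higher: miR850, miR777, miR447b, miR167d and miR173-5p. The median there was 0.56 and 16 of the 19 were positive. Both comparisons use the same 2 wild-type libraries.

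The count for atprmt5-2 rests on the scale and on wild type: scaled to 21 nt reads 0 were called (3 at an unadjusted p under 0.05 in limma), scaled to the 22 nt miRNA reads 0 were higher and 3 lower (miR845b, miR848 and miR856), 1 (miR167d) was called without wild-type replicate 1 and 3 (miR167d, miR850 and miR447b) without wild-type replicate 3. The count for atprmt5-6 depends on which libraries share the estimate of the spread: 8 were called higher when only atprmt5-6 and wild type were fitted, and 6 and 5 without atprmt5-2 replicate 1 and replicate 3. Going by libraries alone, 11 of the 19 (57.9%) in atprmt5-2 and 13 (68.4%) in atprmt5-6 were above both wild-type libraries in both of their own, and 1 (5.26%) and 2 (10.5%) were below. On the RPM scale 10 of the 19 (52.6%) were above both wild-type libraries in all 4 mutant libraries, and 1 (5.26%), miR856, was below. Scaled to 21 nt reads, 3 (15.8%), miR173-5p, miR777 and miR850, were above in all 4, and 4 (21.1%), miR830-5p, miR845b, miR848 and miR856, were below.

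**Figure D2:**
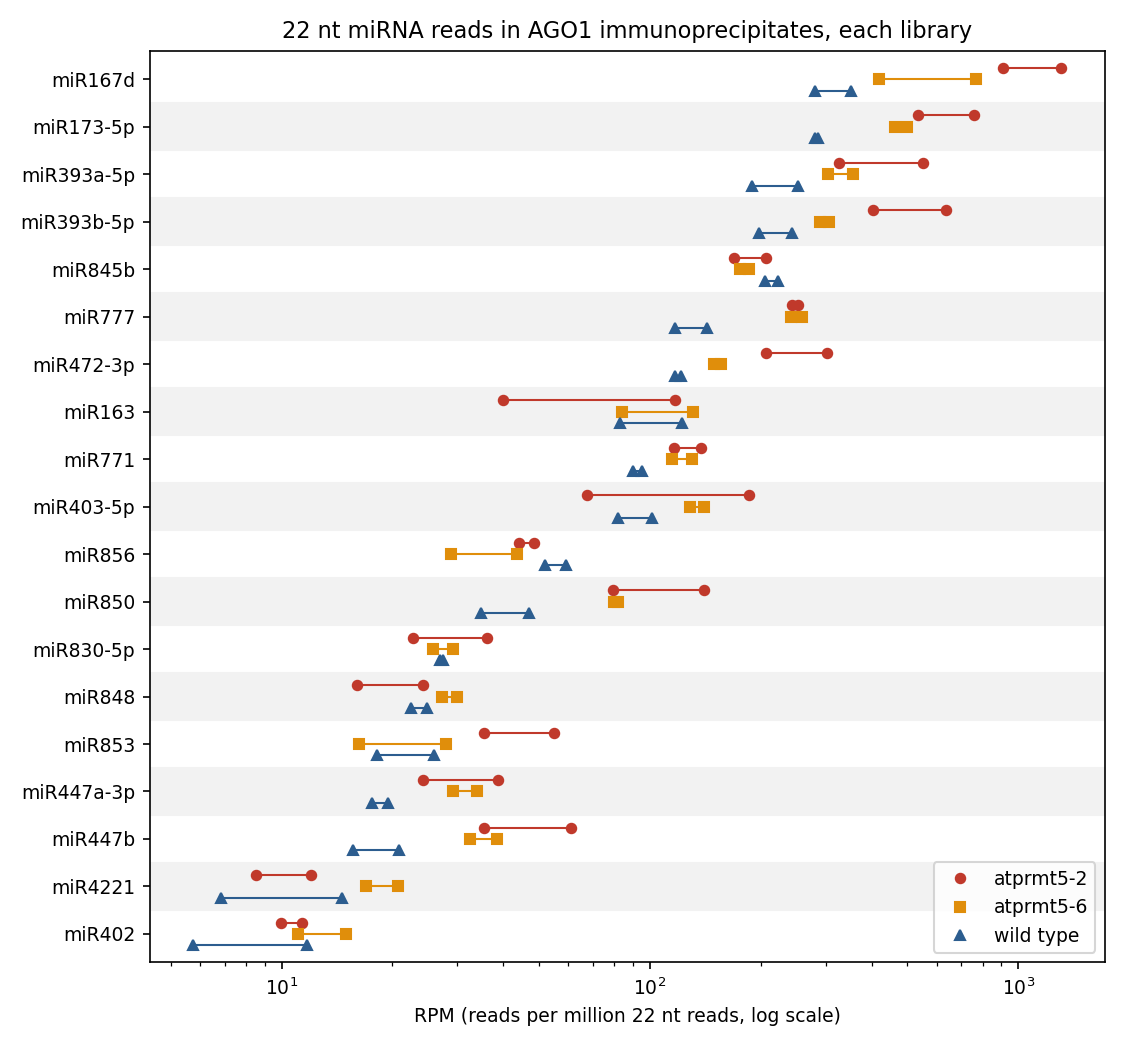
Levels of the 19 tested miRNAs in RPM of 22 nt reads on a log axis, with 1 point per AGO1-IP library and a line between the 2 libraries of a group; miRNAs run from the highest wild-type mean at the top to the lowest. Both libraries of both mutants lie to the right of wild type for 10 miRNAs, among them miR167d and miR173-5p, and to the left for miR856.

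Known 22 nt triggers of secondary siRNAs were among the guides that rose in atprmt5-2 by RPM of 22 nt reads. Of 6 entries of that list in the tables, 4 were listed and tested: miR173-5p, miR393a-5p, miR393b-5p and miR472-3p. All 4, which hold 3 distinct sequences, were higher in atprmt5-2, against 9 of 19 (47.4%) over all tested, with a median log2 fold change of 1.11 against 0.70 over all 19 tested, and 0 of 4 passed in atprmt5-6, against 0 of 19 over all tested, where their median was 0.51 against 0.56. The other entries of that list had no listed value in the 22 nt AGO1-IP tables. Scaled to 21 nt reads, none of the 4 passed in atprmt5-2 (limma, adjusted p from 0.263 to 0.44). The list leaves out miR845b, which was kept with the pollen-associated miRNAs. Its log2 fold changes were -0.19 in atprmt5-2 and -0.24 in atprmt5-6.

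miR173-5p starts the trans-acting siRNAs of the TAS1 and TAS2 transcripts. It stood at 534 and 760.5 RPM in atprmt5-2, at 498 and 464 RPM in atprmt5-6, and at 285 and 281 RPM in wild type. Each mutant library was above both wild-type libraries, which lay close together. The log2 fold change was 1.17 ± 0.31 (SE) in atprmt5-2 (limma, adjusted p = 0.00371) and 0.76 ± 0.31 in atprmt5-6 (adjusted p = 0.0796). Scaled to 21 nt reads its level was 100.3 and 167.8 RPM in atprmt5-2, 93.8 and 97.5 in atprmt5-6, and 87.2 and 83.6 in wild type, still without overlap, and the log2 fold changes were 0.60 (limma, adjusted p = 0.288) and 0.16 (adjusted p = 0.835).

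miR393 acts on the mRNAs of TIR1 and the AFB auxin receptors, a group in which it also starts secondary siRNAs. The reads of its 2 identical copies cannot be assigned to a gene, so their sum is the better measure. Summed, miR393 stood at 728 and 1187 RPM in atprmt5-2, 662 and 594 RPM in atprmt5-6, and 494 and 388 RPM in wild type. By RPM of 22 nt reads all mutant libraries were above wild type, and the atprmt5-2 replicates lay further apart than those of the other groups. The summed log2 fold change was 1.08 ± 0.32 (SE) in atprmt5-2 (limma, adjusted p = 0.0144) and 0.52 ± 0.32 in atprmt5-6 (adjusted p = 0.258). As separate entries miR393b-5p and miR393a-5p changed by 1.204 and 0.95 on the log2 scale in atprmt5-2 (adjusted p = 0.00371 and 0.0138), and by 0.44 and 0.59 in atprmt5-6. Scaled to the 22 nt miRNA reads of a library, the value of miR393a-5p in atprmt5-2 was -0.05 and that of miR393b-5p 0.20. Scaled to 21 nt reads, miR393a-5p had 61.1 and 121.3 RPM in atprmt5-2, 67.1 and 64.0 in atprmt5-6, and 77.0 and 56.3 in wild type. On that scale miR393a-5p and miR393b-5p changed by 0.38 and 0.64 in atprmt5-2 (limma, adjusted p = 0.44 and 0.263). In atprmt5-6 they changed by -0.01 and -0.16.

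miR472-3p guides the cutting of mRNAs for immune receptors with a coiled coil and a nucleotide-binding domain. Its level was 206 and 302 RPM in atprmt5-2, 149.6 and 155.7 RPM in atprmt5-6, and 117 and 122 RPM in wild type. The groups did not overlap, and atprmt5-2 was the highest. The log2 fold change was 1.06 ± 0.30 (SE) in atprmt5-2 (limma, adjusted p = 0.00492) and 0.35 ± 0.30 in atprmt5-6 (adjusted p = 0.346). Scaled to 21 nt reads, atprmt5-2 had 38.7 and 66.6 RPM, atprmt5-6 28.2 and 32.7, and wild type 35.8 and 36.2, so that the atprmt5-6 libraries were the lowest.

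The auxin list holds 10 entries in the tables, of which 3 were listed as 22 nt reads, the miR393 pair and miR167d, which hold 2 distinct sequences. All 3 were higher in atprmt5-2, against 9 of 19 (47.4%) over all tested, and 0 in atprmt5-6, against 0 of 19. Members of the miR167 family guide the cutting of ARF6 and ARF8 mRNAs, auxin response factors needed for flower maturation. miR167d was the most abundant single entry in wild type by its mean, though below the summed miR393 copies, and had the largest fold change of the 19 in atprmt5-2. It reached 1309 and 911 RPM in atprmt5-2, 768 and 419.8 RPM in atprmt5-6, and 281 and 352 RPM in wild type. No mutant library fell into the range of wild type, though the replicates of each mutant were far apart and replicate 1 was the higher in both. The log2 fold change was 1.79 ± 0.34 (SE; 95% interval 1.098 to 2.49, from the spread between libraries) in atprmt5-2 (limma, adjusted p = 0.000201), the only call that held in all 6 fits with 1 library left out. In atprmt5-6 it was 0.85 ± 0.34 (adjusted p = 0.0796). Scaled to 21 nt reads, miR167d had 245.6 and 201 RPM in atprmt5-2, 144 and 88.2 in atprmt5-6, and 85.9 and 104.6 in wild type, so that only atprmt5-2 stayed clear of wild type, with a log2 fold change of 1.23 (limma, adjusted p = 0.0596). It took 33.6% and 20.8% of all 22 nt miRNA reads in atprmt5-2, 24.0% and 15.1% in atprmt5-6, and 13.6% and 17.1% in wild type.

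**Figure D3:**
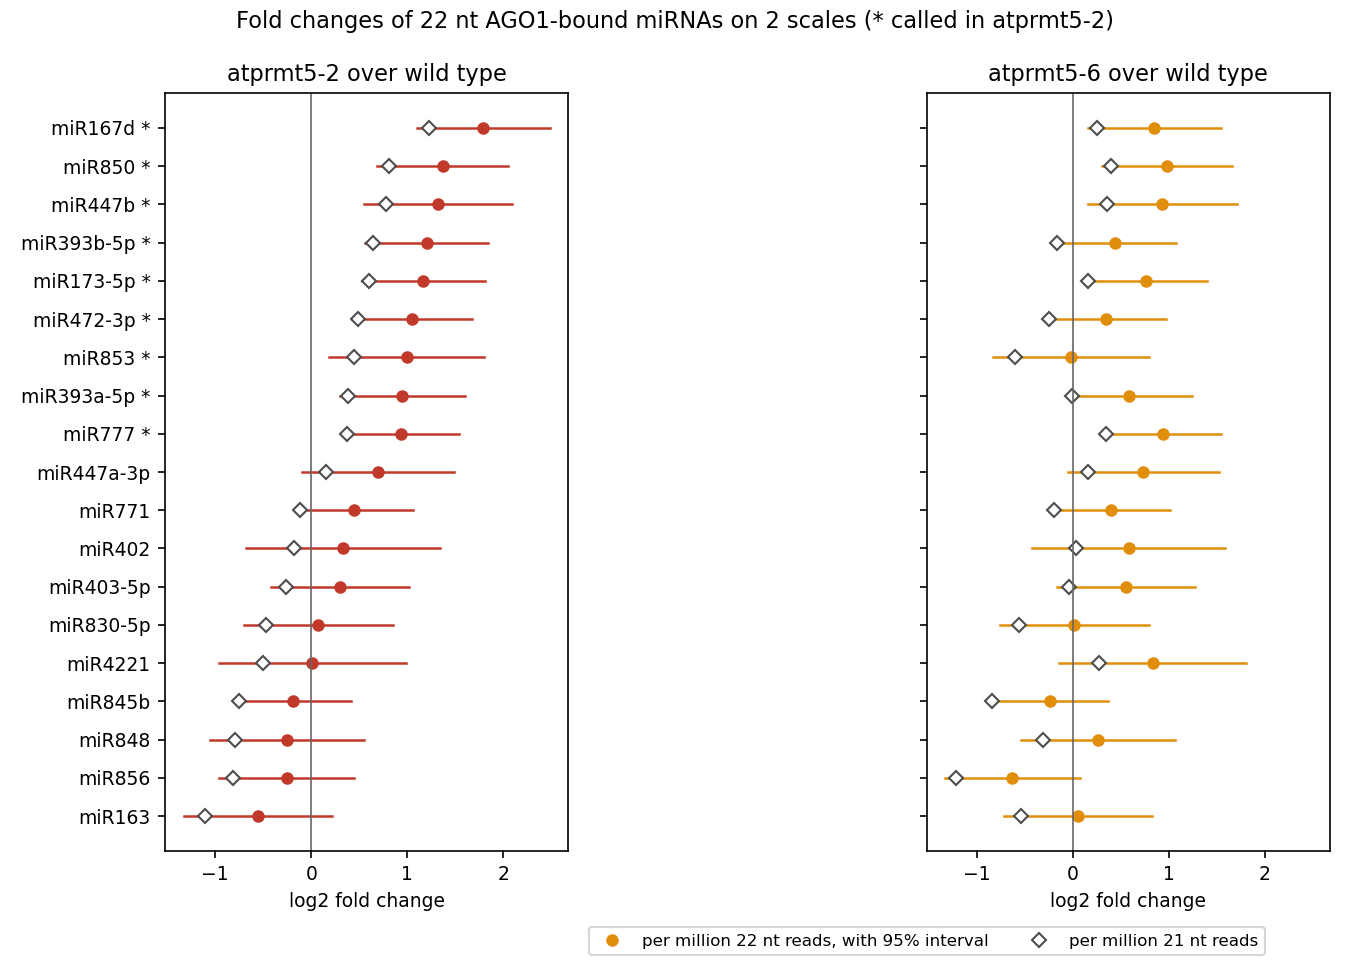
Log2 fold changes of the 19 tested miRNAs over wild type, atprmt5-2 on the left and atprmt5-6 on the right: filled points with lines are limma values on log2(RPM + 1) with 95% intervals, open diamonds the same miRNA scaled to 21 nt reads, and asterisks the 9 calls. The diamonds lie lower for every miRNA, and miR167d in atprmt5-2 has the highest value, 1.79 scaled to 22 nt reads and 1.23 scaled to 21 nt reads.

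The 22 nt form of miR167d could be set against its own 21 nt form and against its 21 nt relative. Mature miR167d shares its first 20 bases with miR167a-5p, then carries A21G, counted from the 5′ end with the base of miR167a-5p first, and has 1 further base. As 21 nt reads, miR167d stood at 66.4 and 45.8 RPM of 21 nt reads in atprmt5-2, 59.5 and 45.0 in atprmt5-6, and 53.8 and 60.4 in wild type. Those ranges overlapped. Scaled to the same 21 nt reads, its 22 nt form was above wild type in atprmt5-2, with 245.6 and 201 RPM against 85.9 and 104.6. In atprmt5-6, with 144 and 88.2 RPM, the 22 nt form overlapped with wild type too. The relative miR167a-5p stood at 458 and 406 RPM of 21 nt reads in atprmt5-2, 423 and 504 in atprmt5-6, and 579 and 529.5 in wild type, lower in all 4 mutant libraries than in wild type.

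The share of 22 nt reads among the 21 and 22 nt reads of miR167d was 78.7% and 81.5% in atprmt5-2, 70.8% and 66.2% in atprmt5-6, and 61.5% and 63.4% in wild type. This share is independent of the pool used for scaling. It could depend on how the authors placed reads among the miR167 relatives, which is not stated. The ratio of 22 to 21 nt reads was higher in atprmt5-2, with a log2 difference of 1.28 ± 0.21 (SE; limma, adjusted p = 0.0214), and it was the 1 of 15 miRNAs (6.67%) that passed. In atprmt5-6 the log2 difference was 0.39 ± 0.21 (adjusted p = 0.609) and 0 of 15 (0%) passed, with 2 at an unadjusted p under 0.05 in limma, miR173-5p and miR403-5p. Both of these rest on few 21 nt reads. miR173-5p had 7 and 2 such reads in atprmt5-6 against 9 and 10 in wild type, and miR403-5p 5 and 6 against 1 and 2. The call for miR167d was lost in 5 of the 6 fits that left out 1 library, and with the replicate number as a block. Over the 6 fits its log2 difference ran from 1.15 to 1.40. The alleles themselves did not pass a test of their difference in this ratio (0.88 ± 0.21, limma, adjusted p = 0.114).

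**Figure D4:**
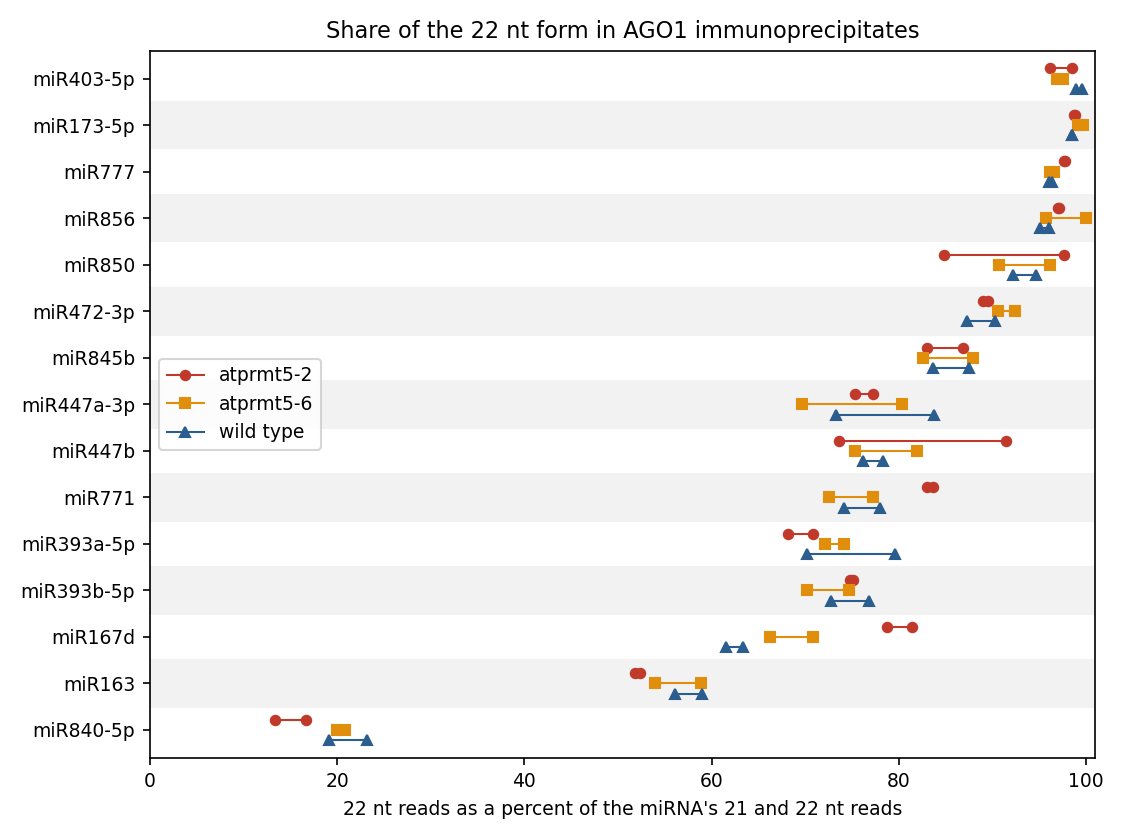
Share of 22 nt reads among the 21 and 22 nt reads of each of 15 miRNAs in the AGO1-IP libraries, in percent, with 1 point per library. miR167d lies at 78.7% and 81.5% in atprmt5-2, 70.8% and 66.2% in atprmt5-6 and 61.5% and 63.4% in wild type, with the 3 groups apart from each other.

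Among the other 14 miRNAs 0 passed in atprmt5-2, with 3 at an unadjusted p under 0.05 in limma: miR771 (0.64), miR840-5p and miR403-5p (-1.56). The value of miR403-5p rests on few 21 nt reads, 2 and 4 in atprmt5-2 against 1 and 2 in wild type. miR173-5p was nearly all 22 nt, with 98.7% and 98.8% in atprmt5-2, 99.1% and 99.7% in atprmt5-6, and 98.5% and 98.5% in wild type. miR840-5p was mostly found as 21 nt reads, with 13.3% and 16.7% of 22 nt in atprmt5-2, 20% and 20.8% in atprmt5-6, and 23.2% and 19.2% in wild type. Its log2 ratio was lower in atprmt5-2 by a value that did not pass (-0.54 ± 0.17, SE; limma, adjusted p = 0.149). The median log2 difference of the ratio over the 15 was 0.05 in atprmt5-2 and -0.03 in atprmt5-6.

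The remaining called guides are less conserved miRNAs, for which no role is stated here. miR850 was found at 79.6 and 140.5 RPM in atprmt5-2, 82.0 and 79.7 RPM in atprmt5-6, and 34.7 and 46.9 RPM in wild type. Its values were above wild type in all 4 mutant libraries on both scales. By RPM of 22 nt reads its log2 fold change was 1.37 ± 0.33 (SE) in atprmt5-2 (limma, adjusted p = 0.00259) and 0.98 ± 0.33 in atprmt5-6 (adjusted p = 0.0561). Scaled to 21 nt reads it was 0.81 in atprmt5-2 and did not pass (limma, adjusted p = 0.188). miR777 had 243 and 253 RPM in atprmt5-2, 259 and 241 RPM in atprmt5-6, and 143 and 117 RPM in wild type. Here the alleles had almost the same levels, and the log2 fold changes were 0.93 ± 0.30 (SE) in atprmt5-2 (limma, adjusted p = 0.0101) and 0.94 ± 0.30 in atprmt5-6 (adjusted p = 0.0561). Scaled to 22 nt miRNA reads, however, miR777 in atprmt5-2 was at -0.06 and in atprmt5-6 at 0.41. Scaled to 21 nt reads, miR777 changed by 0.37 in atprmt5-2 (limma, adjusted p = 0.44).

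The identical miR447a-3p and miR447b together stood at 85.3 and 74.2 RPM in atprmt5-2, 61.8 and 72.3 RPM in atprmt5-6, and 33.2 and 40.3 RPM in wild type. The summed groups did not overlap, and the log2 fold change was 1.1001 ± 0.27 (SE) in atprmt5-2 (limma, adjusted p = 0.00613) and 0.85 ± 0.27 in atprmt5-6 (adjusted p = 0.0484). With identical copies summed, this pair was called in atprmt5-6, as were miR850 and miR777, against 0 when copies were kept apart. Scaled to 21 nt reads with copies apart, miR447b, miR850 and miR777 changed by 0.36, 0.40 and 0.35 in atprmt5-6 (limma, adjusted p = 0.835 for each). On that scale atprmt5-6 replicate 1 was below wild-type replicate 3 for miR447a-3p (5.51 against 5.79 RPM) and miR447b (6.12 against 6.19 RPM). The authors' split of reads between the copies was uneven in 1 library: in atprmt5-2 replicate 1, miR447b held 61.1 RPM and miR447a-3p 24.2 RPM, and the separate call of miR447b uses this split. miR853, at 35.5 and 54.8 RPM in atprmt5-2, 28.0 and 16.2 RPM in atprmt5-6, and 25.9 and 18.1 RPM in wild type, was the weakest call (0.99 ± 0.40, SE, in atprmt5-2, limma, adjusted p = 0.0386; -0.02 ± 0.40 in atprmt5-6). Its call was lost in 5 of 6 fits with 1 library left out.

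Not all guides moved with the summed level. miR845b, which matches the tRNA primer binding sites of retrotransposons and is known for starting small RNAs in pollen, was found at 169.1 and 207 RPM in atprmt5-2, 176 and 185 RPM in atprmt5-6, and 205 and 222 RPM in wild type. The log2 fold changes were -0.19 ± 0.30 (SE) in atprmt5-2 (limma, adjusted p = 0.596) and -0.24 ± 0.30 in atprmt5-6 (adjusted p = 0.537). Scaled to 21 nt reads, miR845b had 31.7 and 45.6 RPM in atprmt5-2, 33.1 and 38.9 in atprmt5-6, and 62.6 and 66.1 in wild type, below in all 4 mutant libraries. It was the single listed member of the pollen-associated list of 3, miR845a and miR2939 having no listed value.

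miR856 was at 48.3 and 44.1 RPM in atprmt5-2, 43.6 and 28.8 RPM in atprmt5-6, and 59.1 and 51.8 RPM in wild type. It was the one tested miRNA below wild type in every mutant library by RPM, but it passed in neither allele (-0.26 ± 0.34 and -0.63 ± 0.34, SE, in atprmt5-2 and atprmt5-6; limma, adjusted p = 0.596 and 0.184). Scaled to 21 nt reads the difference in atprmt5-6 was -1.22 (limma, adjusted p = 0.0767).

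miR163, a miRNA annotated at 24 nt that guides the cutting of mRNAs for small-molecule methyltransferases, had 39.8 and 117 RPM as 22 nt reads in atprmt5-2, 83.9 and 131 RPM in atprmt5-6, and 83.0 and 122 RPM in wild type. The groups overlapped, and 1 library set the atprmt5-2 value, which was -0.55 ± 0.38 (SE; limma, adjusted p = 0.242) with both replicates, and between -1.32 and 0.21 when 1 library was left out. In the 24 nt tables of the same libraries miR163 was listed at 1724 and 2389.9 RPM in atprmt5-2, 2128 and 3184 RPM in atprmt5-6, and 3829 and 4706 RPM in wild type, lower in all 4 mutant libraries. The 24 nt tables have their own denominator, so that these values are not comparable with those at 22 nt.

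miR403-5p lies opposite miR403-3p, the guide against AGO2 mRNA, in its precursor, and was the 1 tested of 5 listed passenger strands. It was found at 186 and 67.6 RPM in atprmt5-2, 129 and 140.2 RPM in atprmt5-6, and 101.1 and 81.9 RPM in wild type. The atprmt5-2 replicates lay on either side of wild type, and the log2 fold change of 0.30 ± 0.35 (SE; limma, adjusted p = 0.588) ran from -0.42 to 1.02 as libraries were left out. In atprmt5-6, which lay above wild type in both libraries, it was 0.56 ± 0.35 (adjusted p = 0.238). The guide strand miR403-3p stood at 11326 and 10428 RPM of 21 nt reads in atprmt5-2, 9753 and 10719 in atprmt5-6, and 12303 and 12693 in wild type, lower in all 4 mutant libraries. The passenger strands of miR162, whose guide acts on DCL1 mRNA, were listed with at most 0.650 RPM, from 1 read in any library.

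The other tested miRNAs, miR771, miR402, miR830-5p, miR848 and miR4221, passed in neither allele. By RPM of 22 nt reads miR771 was above wild type in all 4 mutant libraries, with 117 and 138 RPM in atprmt5-2, 130.1 and 115 RPM in atprmt5-6, and 89.9 and 95.2 RPM in wild type, and log2 fold changes of 0.45 and 0.40. Scaled to 21 nt reads, miR771 had 21.9 and 30.4 RPM in atprmt5-2, 24.5 and 24.2 in atprmt5-6, and 27.5 and 28.3 in wild type. Its log2 fold changes on that scale were -0.11 in atprmt5-2 and -0.19 in atprmt5-6. The other 4 had means of 10.8 to 28.1 RPM over the 6 libraries and overlapped with wild type in at least 1 mutant. miR4221 was higher in both atprmt5-6 libraries than in both atprmt5-2 libraries, with 8.53 and 12.04 RPM in atprmt5-2, 16.9 and 20.7 RPM in atprmt5-6, and 6.84 and 14.6 RPM in wild type, and did not pass in the direct test of the alleles (-0.82 ± 0.48, SE; limma, adjusted p = 0.365).

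Tested directly against each other, the alleles differed in 0 of the 19 miRNAs (0%; limma, 4 at an unadjusted p under 0.05). Those 4 were all higher in atprmt5-2 than in atprmt5-6: miR853 by 1.02 ± 0.40, miR167d by 0.94 ± 0.34, miR393b-5p by 0.77 ± 0.31 and miR472-3p by 0.70 ± 0.30 on the log2 scale (SE; limma, adjusted p = 0.126 for each). Without atprmt5-2 replicate 1, 3 were called, miR393b-5p and miR472-3p higher and miR403-5p lower in atprmt5-2. The calls in atprmt5-2 and none in atprmt5-6 are thus not a shown difference between the alleles.

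In total small RNA of the same genotypes the summed levels overlapped. The 22 nt miRNAs summed to 884 and 409 RPM in atprmt5-2, 559 and 403.7 RPM in atprmt5-6, and 569.7 and 572 RPM in wild type, where the labels number the replicates 1 and 2 (exact permutation test, p = 0.8). These libraries held 307 to 770 miRNA reads of 22 nt each, against 2743 to 6535 in AGO1-IP, and are less precise. Whether the mutant difference in AGO1-IP differed from that in total small RNA was tested in 1 fit over the 12 libraries, for 17 miRNAs. In this test 0 of 17 (0%) passed in atprmt5-2 (limma, 4 at an unadjusted p under 0.05) and 0 of 17 (0%) in atprmt5-6 (2 at an unadjusted p under 0.05). The median difference over the 17 was 0.69 in atprmt5-2 and 0.57 in atprmt5-6 on the log2 scale. Scaled to 21 nt reads this median was 0.38 in atprmt5-2 and 0.22 in atprmt5-6. Scaled to 22 nt miRNA reads it was -0.24 and -0.22, so its sign depends on the scale.

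miR472-3p had the lowest unadjusted p in this comparison in both alleles. In total small RNA it stood at 42.5 and 24.0 RPM in atprmt5-2, 19.5 and 32.1 RPM in atprmt5-6, and 48.2 and 70.5 RPM in wild type. Thus by RPM of 22 nt reads it was below wild type in every mutant library of total small RNA and above it in every mutant library of AGO1-IP. Scaled to 21 nt reads, the AGO1-IP libraries of atprmt5-6 were below wild type instead. The AGO1-IP difference exceeded that in total by 1.902 ± 0.58 on the log2 scale in atprmt5-2 (SE; limma, adjusted p = 0.0761) and by 1.54 ± 0.58 in atprmt5-6 (adjusted p = 0.293). It was called in atprmt5-2 in 4 of the alternatives, with an adjusted p of 0.00911 among miRNAs of at least 50 RPM, of 0.0323 with log2(RPM + 5), and of 0.0113 and 0.0413 without the first total replicate of atprmt5-2 and of wild type. miR447b, at 4.59 and 2.29 RPM in total small RNA of atprmt5-2, 5.85 and 4.02 RPM in atprmt5-6, and 5.57 and 7.23 RPM in wild type, had a difference of 2.10 ± 0.70 in atprmt5-2 (SE; limma, adjusted p = 0.0761), from few reads. The identical miR447a-3p had 0.19 ± 0.85 in atprmt5-2 (SE; limma, adjusted p = 0.955). In atprmt5-6 the differences were 1.26 for miR447b and -0.15 for miR447a-3p. The value of miR447b thus depends on how reads were split between the copies, whose sum was not tested in this comparison.

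In the total libraries miR167d was split by replicate. It was listed at 339 and 57.2 RPM in total small RNA of atprmt5-2, 179 and 40.2 RPM in atprmt5-6, and 72.4 and 57.0 RPM in wild type. Replicate 1 of each mutant was far above wild type and replicate 2 at or below it. The AGO1-IP difference exceeded that in total by 0.68 ± 1.03 in atprmt5-2 (SE; limma, adjusted p = 0.797) and by 0.45 ± 1.03 in atprmt5-6 (adjusted p = 0.754). miR173-5p, at 103 and 68.7 RPM in total small RNA of atprmt5-2, 75.1 and 68.3 RPM in atprmt5-6, and 70.5 and 54.2 RPM in wild type, overlapped with wild type in both mutants. miR845b was lower in every mutant library of total small RNA, with 14.9 and 25.2 RPM in atprmt5-2, 30.2 and 25.1 RPM in atprmt5-6, and 59.4 and 37.1 RPM in wild type.

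**Figure D5:**
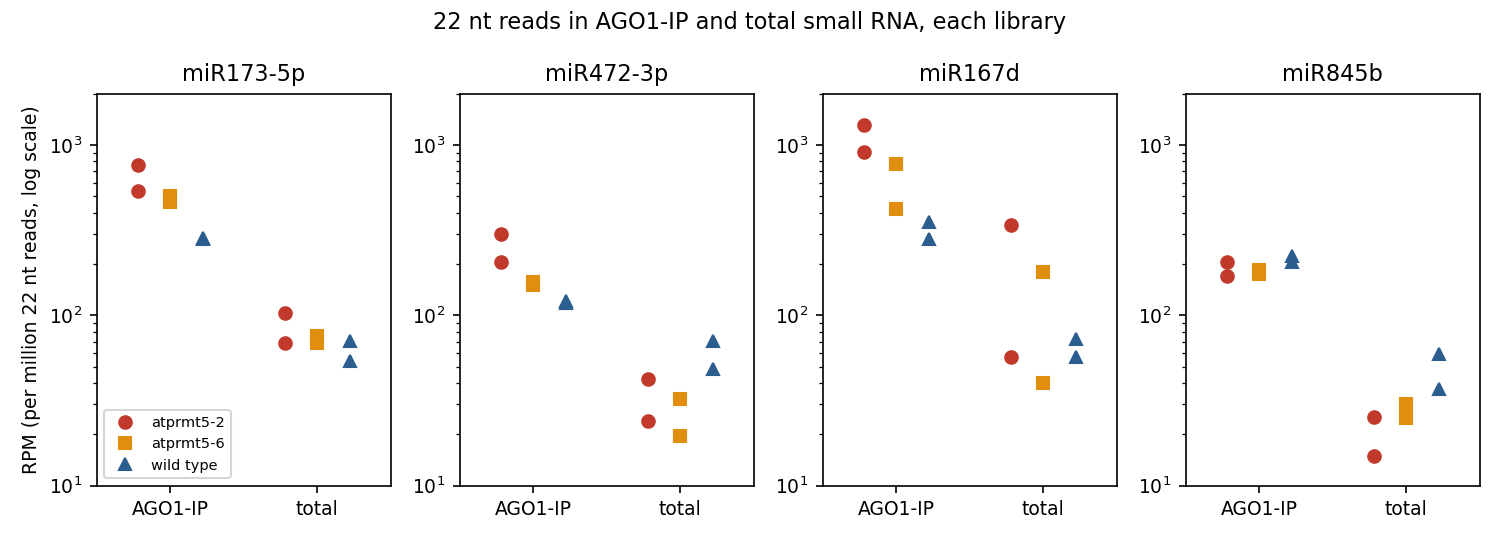
Levels of miR173-5p, miR472-3p, miR167d and miR845b in RPM of 22 nt reads on a log axis, in AGO1-IP and total small RNA, with 1 point per library. miR472-3p is above wild type in the AGO1-IP libraries of both mutants and below it in their total libraries, while miR167d in total small RNA has 1 high and 1 low library in each mutant.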

How the data were processed

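Small RNAs of closed buds were sequenced from AGO1 immunoprecipitates and total extracts and deposited as RPM values for 428 miRNAs, 1 table per library and read length. Missing values were read as 0. TAIR10, Trimmomatic 0.36, Bowtie2 and SAMtools 1.9 are named, per the submitters' processing notes, without roles; how the authors placed reads that match several miRNAs is not stated. Listed RPM of 21 and 22 nt were whole multiples of 1 read's worth within 0.01 reads, which gave read numbers and denominators. Whether a denominator counts all or only mapped reads is not known. The 22 nt tables list too few values to prove whole reads, so no count model was used.

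The main test was limma 3.58.1 (R 4.3.3) with an intensity trend on log2(RPM + 1), which compresses changes of low miRNAs, for means of at least 10 RPM over the 6 AGO1-IP libraries, with Benjamini-Hochberg adjustment and calls under 0.05. Its 3 residual degrees of freedom were raised to 30.3 by sharing the spread over 19 miRNAs, 2 pairs of which are identical sequences. AGO1-IP against total used 12 libraries. Length ratios were log2 of 22 over 21 nt reads, with 0.5 added to each, for miRNAs with a mean of at least 50 reads. Exact permutation tests of values per library used scipy 1.17.1. The limma steps were tested on simulated data, but no result of that test is given here, so it does not bear on the calls. Names matched RefSeq TAIR10.1 for 427 miRNAs. The 2 libraries of each group were further apart than counting noise (chi-square over its degrees of freedom 3.94 to 15.2), and p-values measure only the spread between such duplicates.

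The miRNAs, lists and tests were chosen with earlier results of these data known. Named by rule were calls, the largest values at an unadjusted p under 0.05, the 6 miRNAs highest in wild type, and the set guides miR173, miR393, miR472, miR828, miR825, miR168, miR162, miR403, miR390, miR163, miR858, miR843 and miR845; the remaining tested miRNAs were added after their values were seen. miR828, miR825, miR168, miR390, miR858 and miR843 had no value at 22 nt in AGO1-IP, nor had any entry of the lists for other phasiRNA triggers, silencing machinery, meristem and organ patterning, phase change and flowering, nutrient homeostasis, or MYB and flavonol.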

Additional observations from a re-analysis of the deposited data

How the results depend on the processing

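In atprmt5-2 against wild type the 9 calls became 3 (all lower) when scaled to 22 nt miRNA reads, 0 when centred on the median miRNA, 0 in a fit of all 12 libraries and 0 when scaled to 21 nt reads, and ranged from 1 to 11 with 1 library left out. On the scale of 22 nt miRNA reads miR393a-5p reversed to -0.0504 and miR777 to -0.0648. The median log2 fold change of 0.70 was 0.16 scaled to 21 nt reads and -0.27 scaled to 22 nt miRNA reads. In atprmt5-6 the 0 calls became 1 (miR777) at a mean of at least 50 RPM, 1 (miR856, lower) when scaled to 22 nt miRNA reads, 3 with identical copies summed and 8 with only the 2 groups compared, and ranged from 0 to 6. Between the alleles the range was 0 to 3. For AGO1-IP against total in atprmt5-2 the 0 calls became 2 with log2(RPM + 5) and 1 at a mean of at least 50 RPM, ranging from 0 to 5, and in atprmt5-6 they were 0 throughout. The 1 length ratio called in atprmt5-2 became 0 with the replicate block and ranged from 0 to 1; centred on the library ratio the call was miR840-5p (lower) instead. In atprmt5-6 the range was 0 to 2. The rise of the miRNA share of 22 nt reads, 0.150 percentage points, ranged from 0.123 to 0.177. The causes were not tested. The replicate block gave 9, 0 and 0 calls in atprmt5-2, atprmt5-6 and between the alleles; replicate numbers are shared only as labels, and differences between replicates 1 and 3 correlated by 0.23 (the alleles), 0.12 (atprmt5-2 and wild type) and 0.51 (atprmt5-6 and wild type) over 19 miRNAs. Of single miRNAs under all alternatives, 1554 values kept direction and side of the threshold, 143 changed sign without passing in either fit, 64 lost and 45 gained a call in the same direction, and the 2 above changed sign and lost their call. The scale per 21 nt reads, the fit without an intensity trend and that of 2 groups were chosen after seeing the data. The planned edgeR and DESeq2 tests were not run.

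With 2 libraries a group, depths from 703609 reads and a spread shared over few miRNAs, small differences could not be detected, and nothing in these tables fixes which denominator is right.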

Other observations

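Of the miRNAs listed as 22 nt reads, 15 were listed only in total small RNA, and none of them begins with uridine. The most abundant was miR8166, at 5.74 and 0 RPM in atprmt5-2, 8.78 and 2.01 RPM in atprmt5-6, and 11.1 and 7.23 RPM in wild type. All 6 copies of miR8167, which share 1 mature sequence, and both copies of miR2933 were among them.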
